A study of Mus musculus with 3 samples.

Results

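The genes that make cyclic AMP (cAMP), break it down and carry its signal through protein kinase A (PKA) were read in ribosome-bound RNA from the mouse dentate gyrus. They were chosen by symbol alone: the adenylyl cyclases (Adcy), the phosphodiesterases (Pde with a number and a letter from a to d), the PKA catalytic and regulatory subunits (Prkaca, Prkacb and the Prkar genes), the cAMP-activated exchange factors Rapgef3 and Rapgef4, and Creb1. This gave 41 of 32531 genes, namely 10 cyclases, 22 phosphodiesterases, 2 catalytic and 4 regulatory subunits, 2 exchange factors and Creb1. The rule uses no measured value, though it was set with earlier results of these data known.

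All 3 libraries, named replicates 1 to 3, belong to 1 group of untreated adult mice of the line Penk-TRAP NIDA186 on the C57BL/6J strain, carrying Penk-EGFP/Rpl10a. In this line a ribosomal protein fused to a green fluorescent protein is made under the regulatory DNA of Penk, and tagged ribosomes were pulled down from dissected tissue with an antibody against the fluorescent protein. Pooling of animals, and the animal behind each replicate, are not stated in the labels, so p-values measure the spread between these libraries, which may be technical in part. Without a whole-tissue or unbound library among those used, each comparison sets genes of the same library side by side. In such bulk RNA fewer expressing cells and less RNA per cell cannot be told apart.

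Adenylyl cyclases turn ATP into cAMP when stimulatory G proteins, and for some members calcium with calmodulin, act on them. Phosphodiesterases hydrolyse cAMP, cGMP or both. In the PKA holoenzyme a dimer of regulatory subunits holds catalytic subunits inactive until cAMP binds, and free catalytic subunits then phosphorylate targets that include the transcription factor CREB, the product of Creb1. Rapgef3 and Rapgef4 encode Epac proteins, a PKA-independent route from cAMP to the small GTPase Rap. In granule cells, cAMP and PKA are known for their part in long-lasting potentiation at mossy fibre synapses.

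The libraries held 5348761, 19195559 and 11059982 counts on genes in replicates 1 to 3, and a count of 0 allows a level of up to 3 counts. On the CPM scale, on which counts are divided by library size, this limit is 0.707, 0.131 and 0.257, and it covers counting error only. Levels are given as CPM per kb of exon, because counts rise with the length of a transcript. The median tested gene lay at 5.59, 6.39 and 6.19 CPM per kb. Of 9 granule cell markers 4 could be tested, of which Prox1, Rfx3 and Stxbp6 lay above the median gene, while C1ql3 had 0, 1658 and 453 counts and Calb1 2, 1350 and 121. Markers of other cells were detected as well. Above the median gene lay 3 of 4 tested oligodendrocyte markers, among them Mbp and Mobp, 1 of 3 GABAergic markers (Sst, level 4.40) and 1 of 4 smooth muscle and pericyte markers (Rgs5, 3.27), against 9.76% of all tested genes. Mag, Mog, Gad1 and Gad2 missed the threshold or were not tested. Of the tested astrocyte, endothelial and striatal projection neuron markers, 0 of 4, 0 of 2 and 0 of 2 lay above it. The 1 tested microglia marker, Csf1r, lay below it, against 3.74% of all tested genes.

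Since CREB binds the cAMP response element (CRE), TGACGTCA, or its shorter core TGACG, read on either strand as TGACG or CGTCA, the RefSeq promoter windows on GRCm38.p6 were searched for these letters. A window runs from 250 bases before to 50 bases after a gene's start, and 33 of the 41 members have at least 1. The full element, which contains the core on both strands, occurred in 1 member, Prkar1a, or 3.03% of members with a window, against 3.97% of tested genes with a window and 2.03% of all genes with a window. The core occurred in 14 of 33 members (42.4%), against 37.6% of tested genes and 23.0% of all genes. A gene was counted if any of its windows held the letters. The 33 members have 70 windows, while all 27025 genes with a window have 32851. More sequence was thus searched per member than per gene over all genes, and no share given here was adjusted for this. The stretches below are shown for the members that lay above the median gene in the tests that follow, of which 5 of 6 hold the core and Adcy1 does not. Capitals mark the element or its core, and each stretch reads from 5′ to 3′ on the gene's own strand.
Prkar1a: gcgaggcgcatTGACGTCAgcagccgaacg
Prkaca: gggctgcgggggCGTCAcggacagaggact
Prkacb: ggggcttgaccgCGTCActtccggcgcgcc
Adcy9: cggacccggcggTGACGtgcgcgggccgcg
Pde1a: gtaacttcagccCGTCAttcctcagtaatt
The element of Prkar1a begins 39 bases after its nearest annotated start and 49 bases before another, the start whose window is printed. In the other genes the first capital lies 6, 102, 24 and 166 bases before the nearest start of Prkaca, Prkacb, Adcy9 and Pde1a. The stretches lie at chr11:109650889-109650918 (plus strand), chr8:83972960-83972989 (plus), chr3:146813031-146813060 (minus), chr16:4420505-4420534 (minus) and chr2:80039051-80039080 (minus). A match describes the letters in this window and is no evidence of binding, and among all genes above the median gene that have a window 37.9% hold the core.

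Of the 41 members, 28 passed the filter on low counts and were tested against the median tested gene of their library. In that test, limma's TREAT, a level must exceed the median gene by more than 1 on the log2 scale, and adjusted p-values are Benjamini-Hochberg over all 7924 tested genes. Above the median gene lay 6 members (21.4% of those tested), against 9.76% of all tested genes: Adcy1, Adcy9, Prkaca, Prkacb, Prkar1a and Pde1a. Below it lay 2, Pde1c and Pde3b (7.14%), against 3.74% of all tested genes. The other 20 passed in neither direction. The filter asks in effect for counts in every library, so these shares are of the members that passed, and 13 members, 4 cyclases, 8 phosphodiesterases and Rapgef3, were not tested. Over all 41 members the median log2 difference from the median tested gene was -0.49, -0.24 and -1.01 in replicates 1 to 3, a mean of -0.58. This sets all members, the 13 untested ones included, against a median taken over tested genes only. With no filter the median gene is a lower one, which raises the level of every member, and the mean became 1.35.

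**Figure D1:**
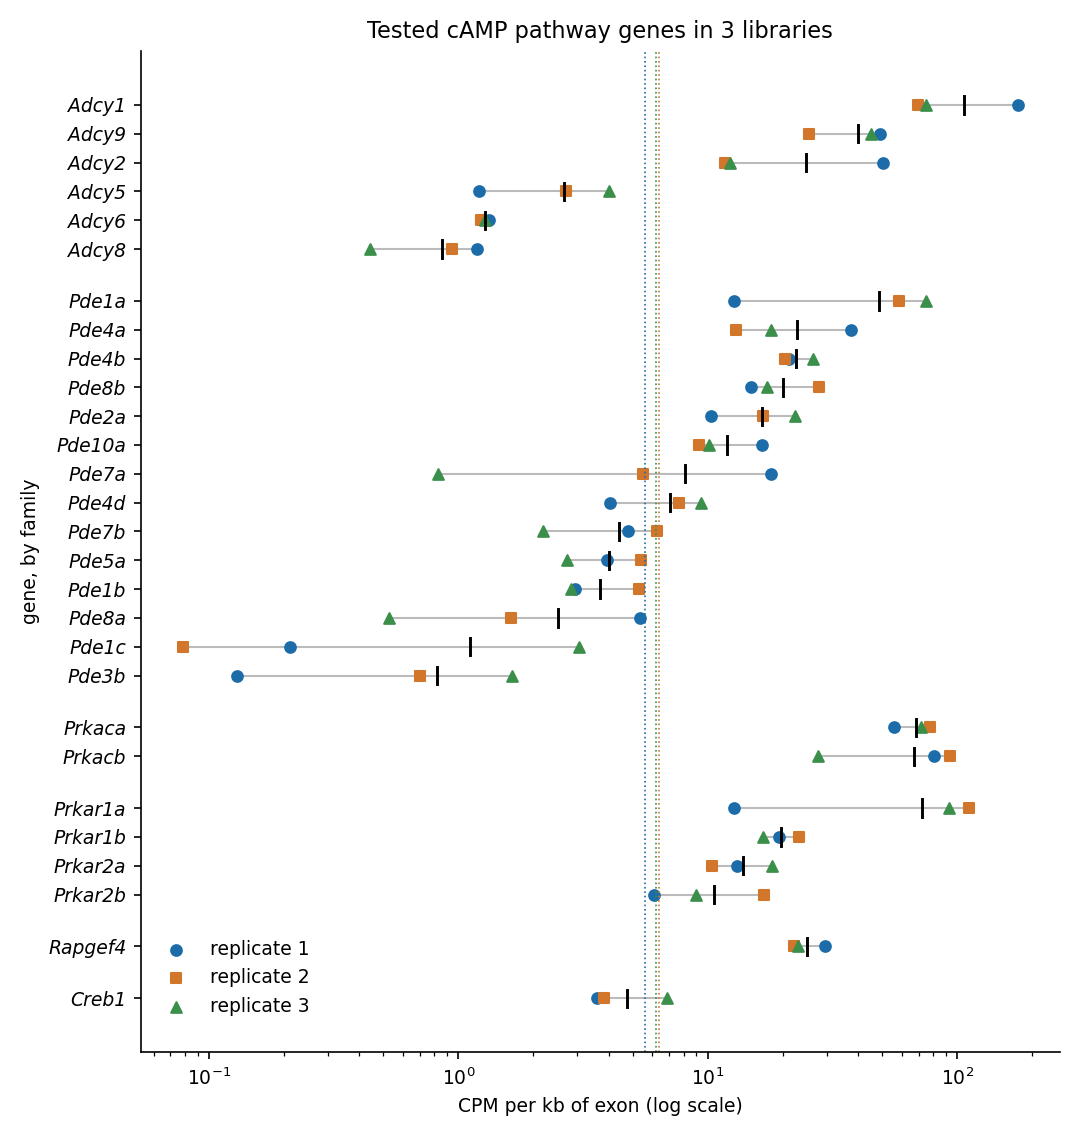
Level of the 28 tested members in CPM per kb of exon (log axis), by family and ordered by mean within a family. Points are the 3 libraries, black ticks their mean, grey lines their range and dotted lines the median tested gene of each library. Adcy1, both catalytic subunits and Prkar1a have the highest means, and Pde1c and Pde7a span the widest ranges.

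Among the cyclases, Adcy1 had the highest mean level, also of all 41 members. Adcy1 (chromosome 11, 7063489 to 7178506), a calmodulin-stimulated cyclase of neurons, had 9315, 20014 and 10954 counts, or 175, 69.8 and 74.8 CPM per kb. Replicate 1 stood highest, yet the median gene lay far below in all 3 libraries, and the mean log2 level over it was 4.01 (SE 0.46, adjusted p = 1.8e-04, limma, n = 3). Adcy9 (chromosome 16, 4287529 to 4420498), a widely expressed cyclase, had 1085, 3034 and 2737 counts, or 49.2, 25.5 and 45.1 CPM per kb. Its level was 2.67 above the median gene (SE 0.46, adjusted p = 0.0130, limma). It no longer passed once replicate 3 was left out (2.70, adjusted p = 0.0766) or with the longest transcript as the length (2.28, adjusted p = 0.0530).

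Adcy2, a cyclase stimulated by G protein beta-gamma subunits, had 903, 1128 and 603 counts, or 50.6, 11.7 and 12.3 CPM per kb. Replicate 1 was 4.32-fold above the lowest library, and the level of 1.68 missed the threshold (adjusted p = 0.365, limma). Adcy1 exceeded Adcy2 in 3 of 3 libraries, by 1.79, 2.57 and 2.61 in log2 CPM per kb, a mean of 2.32 (SD 0.46).

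The remaining cyclases lay much lower. Adcy5, which calcium inhibits and which is best known from the striatum, had 37, 445 and 337 counts, or 1.21, 2.70 and 4.01 CPM per kb. The 7 striatal markers summed to 34.7, 12.9 and 18.1 CPM, against 8.72, 19.4 and 28.8 CPM for Adcy5, so the order of the libraries differed. Rgs9 gave most of that sum in replicates 1 and 3, with 102, 90 and 122 counts, and Drd1 had 17, 99 and 59. Adora2a had 27, 14 and 0 counts, Ppp1r1b 1, 26 and 26 and Drd2 0, 49 and 0, and their part in the level of Adcy5 was not tested. Adcy6, the close relative of Adcy5, was the steadiest member, at 1.32, 1.23 and 1.27 CPM per kb from 38, 191 and 101 counts. It was the 1 tested member whose counts did not differ between libraries beyond sampling noise (Poisson chi-square, adjusted p = 0.904). Adcy8, another calmodulin-stimulated cyclase, had 41, 176 and 42 counts, and its level of -2.90 missed the threshold (adjusted p = 0.0738, limma), though it passed with the longest transcript as the length (-3.13, adjusted p = 0.0415) and in libraries thinned to equal depth (-3.09, adjusted p = 0.0143). Of the 4 untested cyclases, Adcy3 had 21, 125 and 8 counts, Adcy4 0, 13 and 78, Adcy7 3, 17 and 2, and the soluble cyclase Adcy10 6, 2 and 10.

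As a share of the summed CPM per kb of all 10 cyclases, Adcy1 made up 62.7, 61.8 and 53.6%, a mean of 59.4% ± 5.0 (SD, n = 3). Adcy9 followed with 24.1% ± 7.5 and Adcy2 with 12.4% ± 5.0. Calmodulin-stimulated cyclases (Adcy1, Adcy3 and Adcy8) together held 60.3% ± 5.4, of which Adcy3 and Adcy8 gave 0.378% and 0.525%. Adcy5 and Adcy6 together held 2.73% ± 1.58. In the order of the 6 tested cyclases, 2 of 5 steps between neighbours exceeded their own SD with the same sign in 3 of 3 libraries, from Adcy1 to Adcy9 and from Adcy2 to Adcy5. The other 3 steps lay within their spread or turned in 1 library.

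**Figure D2:**
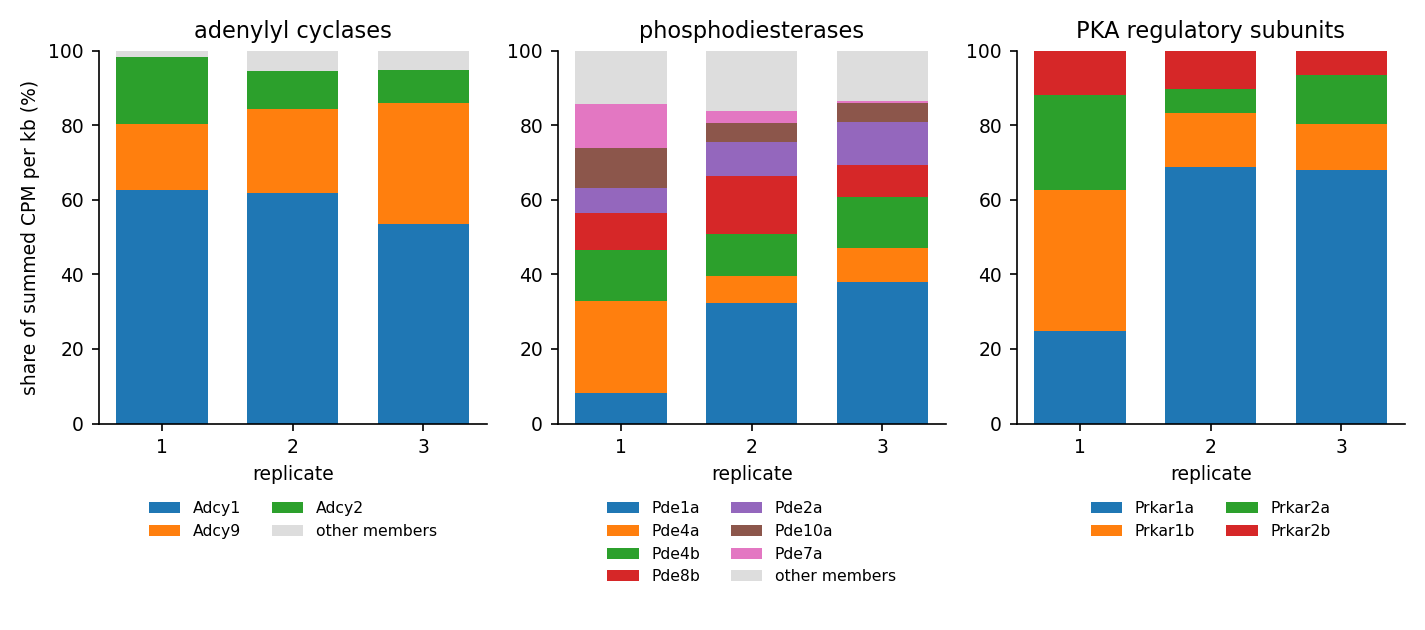
Share of each gene in the summed CPM per kb of its family in replicates 1 to 3, for cyclases, phosphodiesterases and PKA regulatory subunits; bars reach 100% and grey holds all other members. Adcy1 holds over 50% of the cyclase sum in each library, while Pde1a and Prkar1a have a smaller share in replicate 1 than in replicates 2 and 3.

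Among the phosphodiesterases, Pde1a had the highest mean CPM per kb of exon, but was not highest in every library. Pde1a (chromosome 2, 79834453 to 80129458), a calmodulin-stimulated enzyme that hydrolyses both cyclic nucleotides, had 325, 8026 and 5253 counts, or 12.7, 58.3 and 74.8 CPM per kb. Replicate 1 stood 5.87-fold below replicate 3, and its share of the phosphodiesterase sum was 8.32, 32.4 and 38.1%. The level was 2.66 above the median gene (SE 0.51, adjusted p = 0.0250, limma). Leaving out replicate 2 (2.31, adjusted p = 0.214) or replicate 3 (2.32, adjusted p = 0.204) ended that call. Its relative Pde1b had 67, 656 and 179 counts, or 2.93, 5.31 and 2.84 CPM per kb, and lay below Pde1a in 3 of 3 libraries, by 2.11, 3.45 and 4.71 on the log2 scale.

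Pde1c, the third gene of that subfamily, had 18, 36 and 717 counts, or 0.211, 0.0783 and 3.06 CPM per kb. Nearly all of its counts were thus in replicate 3, 39.0-fold above the lowest library. Its level of -3.97 lay below the median gene (SE 0.85, adjusted p = 0.0169, limma). That call did not hold without replicate 2 (-2.91, adjusted p = 0.159), with the longest transcript as the length (-3.23, adjusted p = 0.0726) or without length correction (-1.98, adjusted p = 0.386). With no filter, and so a lower median gene, the level was -2.03 (adjusted p = 0.389). Markers of smooth muscle, in which Pde1c is also known, differed between libraries in their own ways: Myh11 had 36, 976 and 1791 counts, Acta2 7, 627 and 141 and Tagln 0, 216 and 53. The summed CPM of the 5 smooth muscle and pericyte markers was 404, 858 and 245, most of it from Rgs5 in replicates 1 and 2 (370 and 747 CPM) and from Myh11 in replicate 3 (153 CPM). Their part in the level of Pde1c was not tested.

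The Pde4 genes, which encode the cAMP-specific enzymes that rolipram inhibits, made up 41.1, 22.9 and 27.4% of the phosphodiesterase sum. Pde4b had 950, 4913 and 3272 counts, or 21.2, 20.3 and 26.5 CPM per kb, a spread of 1.31-fold. Pde4a had 1220, 2284 and 1605 counts, or 37.6, 13.0 and 17.9 CPM per kb, highest in replicate 1. Their levels of 1.90 and 1.77 missed the threshold (adjusted p = 0.172 and 0.275, limma). Pde4b passed it with the longest transcript as the length (2.74, adjusted p = 0.00713) and without replicate 1 (2.37, adjusted p = 0.00799). Both genes passed without length correction (Pde4b 2.96, adjusted p = 7.0e-04, and Pde4a 2.37, adjusted p = 0.0226). Both also passed with no filter, and so a lower median gene (Pde4b 3.83, adjusted p = 7.9e-04, and Pde4a 3.71, adjusted p = 0.0018). For Pde1a the level was 2.70 with the longest transcript as the length and 2.91 without length correction. Whether Pde1a or Pde4b led in mean log2 level thus depended on the length used. Pde4d had 206, 2116 and 1324 counts, or 4.05, 7.69 and 9.44 CPM per kb, and lay below Pde4b in 3 of 3 libraries by a mean of 1.76 on the log2 scale (SD 0.55). Pde4c had 2, 36 and 0 counts.

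Pde8b, of the high-affinity cAMP-specific group, had 373, 3751 and 1182 counts, or 14.96, 27.9 and 17.2 CPM per kb. The level of Pde8b, 1.68, missed the threshold (adjusted p = 0.317, limma) but passed without replicate 1 (2.29, adjusted p = 0.0142). Its relative Pde8a had 92, 150 and 25 counts, falling from 5.36 to 0.529 CPM per kb between its highest and lowest library. Pde7a, also cAMP-specific, had 591, 975 and 75 counts, or 17.98, 5.49 and 0.828 CPM per kb. Replicates 1 and 3 of Pde7a differed by 21.7-fold, so its mean of 8.10 ± 8.87 CPM per kb (SD, n = 3) describes no library well. Pde7b, with 252, 1780 and 317 counts, kept within 2.87-fold.

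Enzymes that hydrolyse both nucleotides included Pde2a, which cGMP stimulates, with 269, 2346 and 1608 counts, or 10.3, 16.7 and 22.4 CPM per kb. The level of Pde2a, 1.38, missed the threshold (adjusted p = 0.562, limma) but passed without replicate 1 (2.11, adjusted p = 0.0416). In the annotation used here 64.3% of the exon bases of Pde2a also lie under exons of Gm45837 on the same strand, which has no row in the count files. Pde10a, a striatal enzyme that has also been described in the hippocampus, had 895, 2719 and 1513 counts, or 16.4, 9.24 and 10.1 CPM per kb. The level of Pde10a, 0.93, missed the threshold (adjusted p = 0.882, limma) but passed without length correction (2.28, adjusted p = 0.0296). Pde10a lay above Pde2a in replicate 1 and below it in replicates 2 and 3 (0.67, -0.85 and -1.15 on the log2 scale), so these neighbours could not be ordered.

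Pde3b, a cGMP-inhibited enzyme known from adipocytes and liver, had 5, 146 and 175 counts, or 0.129, 0.699 and 1.64 CPM per kb. Its level of -3.44 lay below the median gene (SE 0.78, adjusted p = 0.0292, limma). That call did not hold with replicate 1 left out (-2.05, adjusted p = 0.351) or without length correction (-2.59, adjusted p = 0.131). With no filter, and so a lower median gene, the level was -1.51 (adjusted p = 0.542). Pde3a, its cardiovascular relative, had 0, 217 and 486 counts and was not tested. Endothelial markers were also lowest in replicate 1, as were 42.7% of all tested genes. The 4 markers summed to 18.6, 130 and 252 CPM, of which Flt1 gave most with 73, 2058 and 2648 counts. Not every marker followed the order of that sum, since Cldn5 had 0, 11 and 1 counts. Adcy4, with 0, 13 and 78 counts, had the order of the sum. The part of endothelial RNA in Pde3b, Pde3a and Adcy4 was not tested.

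The cGMP-specific enzymes were a small share of the phosphodiesterase sum, 2.58, 3.67 and 1.65%. Pde5a, the enzyme that sildenafil inhibits, gave 2.58, 3.01 and 1.39% of the same sum, with 165, 1219 and 313 counts, or 3.96, 5.41 and 2.72 CPM per kb. Pde9a had 0, 54 and 20 counts. Of the photoreceptor enzymes, Pde6a and Pde6b had 0 counts in each library and Pde6c had 0, 36 and 1. Pde6d, a prenyl-binding chaperone that is no enzyme and stays out of the sums, had 4, 472 and 6 counts, with 9.46 CPM per kb in replicate 2 against 0.433 and 0.236 in the others. Pde11a, a dual enzyme described in ventral hippocampus, had 12, 0 and 28 counts.

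By substrate, cAMP-specific enzymes (Pde4, Pde7 and Pde8) made up 69.2, 45.8 and 38.0% of the phosphodiesterase sum and dual enzymes 28.3, 50.5 and 60.3%. Replicate 1 thus had the reverse balance of replicate 3. In the order of the 14 tested phosphodiesterases, 0 of 13 steps between neighbours exceeded their SD with the same sign in 3 of 3 libraries, so no neighbouring pair could be ordered.

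Both PKA catalytic subunit genes lay above the median gene. Prkaca (chromosome 8, 83972993 to 83996443) had 589, 4437 and 2078 counts, or 55.8, 77.9 and 71.5 CPM per kb. These 3 values lay within 1.395-fold of each other, at 3.49 above the median gene (SE 0.43, adjusted p = 4.6e-04, limma). Prkacb (chromosome 3, 146729574 to 146812990), whose product is abundant in brain, had 3003, 18772 and 2824 counts, or 80.7, 93.4 and 27.5 CPM per kb. Replicate 3 stood 3.39-fold below replicate 2, and the level was 3.29 (SE 0.47, adjusted p = 0.00196, limma). With Adcy1, these are the 3 members whose call held without any single replicate; without replicates 1, 2 and 3, 11, 4 and 3 members lay above the median gene, against 14.6, 7.21 and 7.27% of all genes then tested.

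Which catalytic gene led depended on the library and on the length used. Prkacb minus Prkaca was 0.53, 0.26 and -1.38 in log2 CPM per kb, a mean of -0.19 (SD 1.03). The annotated exons of Prkacb cover 8.77 kb in all but its longest transcript only 4347 bases, against 2.49 kb and 2276 bases for Prkaca. With the longest transcript as the length the mean difference turned to 0.69, and without length correction to 1.62.

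Among the regulatory subunits Prkar1a (chromosome 11, 109649405 to 109669656), the type I alpha subunit found in most tissues, had the highest mean. It had 234, 11078 and 4696 counts, or 12.8, 112 and 93.0 CPM per kb. Replicate 1 stood 8.77-fold below replicate 2, more than any other PKA subunit. The level was 3.08 above the median gene (SE 0.55, adjusted p = 0.0101, limma). Leaving out either replicate 2 (2.47, adjusted p = 0.144) or replicate 3 (2.80, adjusted p = 0.0576) ended that call.

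Prkar1b, the neuronal type I subunit, had 312, 2033 and 740 counts, or 19.3, 23.3 and 16.6 CPM per kb. It kept within 1.402-fold and exceeded Prkar1a in replicate 1 (0.60 on the log2 scale) but lay below it in replicates 2 and 3 (-2.26 and -2.48). Prkar2a, the widely expressed type II subunit, had 353, 1522 and 1343 counts, or 13.0, 10.4 and 18.02 CPM per kb. Prkar2b, the type II subunit abundant in brain, had 94, 1402 and 383 counts, or 6.07, 16.8 and 8.97 CPM per kb. Prkar2b exceeded Prkar2a only in replicate 2 (0.69), with -1.10 and -1.001 in replicates 1 and 3. The levels of Prkar1b, Prkar2a and Prkar2b were 1.70, 1.16 and 0.69, short of the threshold (adjusted p = 0.297, 0.74 and 0.966, limma). Prkar1b passed without replicate 1 (2.14, adjusted p = 0.0355). With no filter, which lowers the median gene and so raises every level, each of them passed (3.63, 3.09 and 2.62, adjusted p = 0.0016, 0.0107 and 0.0431).

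Type I genes made up 62.7, 83.3 and 80.2% of the regulatory sum, and Prkar1a alone 24.9, 68.9 and 68.1%. The regulatory sum was 51.2, 162 and 137 CPM per kb and the catalytic sum 137, 171 and 99.0. Their ratio was therefore 0.375, 0.948 and 1.38, with an SD of 0.504 around a mean of 0.901, and replicate 1 had the lowest regulatory level relative to the catalytic one. The cyclase sum was 280, 113 and 140 CPM per kb against a phosphodiesterase sum of 153, 180 and 196. Only in replicate 1 did cyclases exceed phosphodiesterases, at 1.83-fold against 0.627-fold and 0.711-fold. All family sums, shares and ratios use the length of the annotated exons, and their values with another length are not given.

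**Figure D3:**
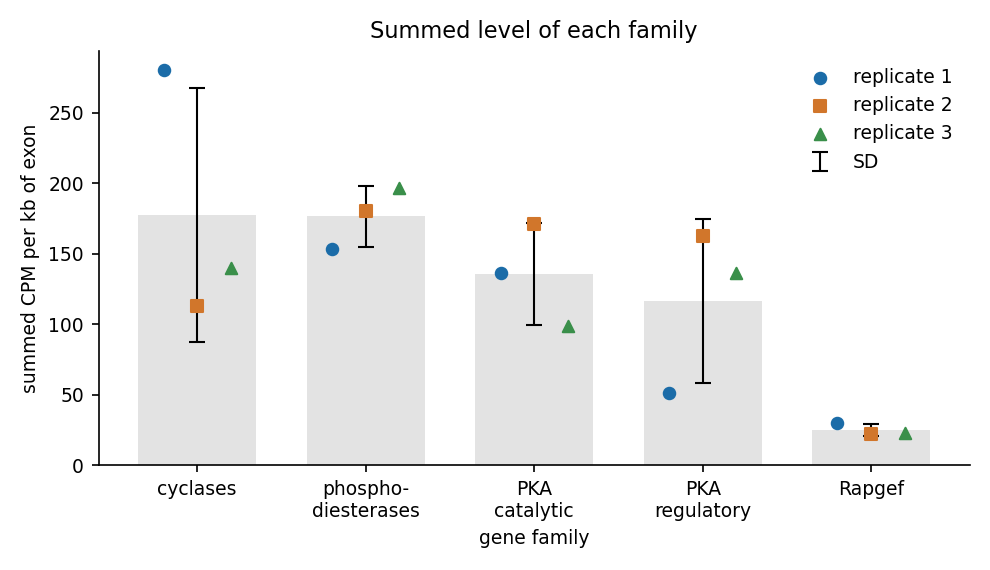
Summed CPM per kb of exon of each family: bars give the mean and error bars the SD over the 3 libraries shown as points. Replicate 1 has the highest cyclase sum (280) and the lowest PKA regulatory sum (51.2), while the phosphodiesterase sum stays between 153 and 196.

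The Epac genes had the largest mean difference of the 8 pairs of related genes compared. Rapgef4, whose product is the Epac protein of brain and endocrine cells, had 837, 3402 and 1791 counts, or 29.6, 22.2 and 23.0 CPM per kb. Rapgef3, the more widely expressed relative, had 9, 47 and 7 counts, or 0.335, 0.324 and 0.0945 CPM per kb. Rapgef4 was higher in 3 of 3 libraries by 6.36, 6.00 and 7.59 on the log2 scale, a mean of 6.65 (SD 0.84), and held 99.0% ± 0.5 of their sum. Against the median gene its level was 2.03 (adjusted p = 0.116, limma), short of the threshold. It passed without replicate 1 (2.33, adjusted p = 0.0104) and without length correction (2.43, adjusted p = 0.0127). With no filter, and so a lower median gene, it also passed (3.97, adjusted p = 5.4e-04).

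Of the 8 pairs compared, 4 had the same sign in 3 of 3 libraries: Rapgef4 over Rapgef3, Pde1a over Pde1b, Adcy1 over Adcy2 and Pde4b over Pde4d. With 3 libraries the smallest p of the exact two-sided sign-flip permutation test is 0.25, which these 4 reached (adjusted p = 0.5 over the 8 pairs), so no pair could pass a threshold of 0.05. The 8 pairs were chosen with earlier results of these data known.

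**Figure D4:**
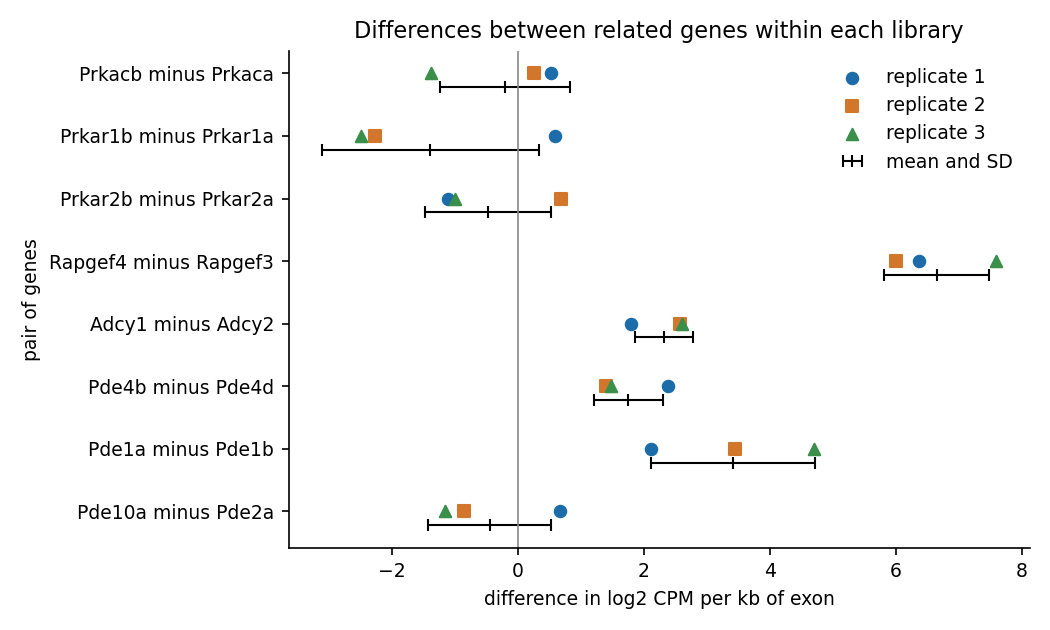
Difference in log2 CPM per kb of exon between 8 pairs of related genes in each library (points), with the mean and SD below (black). Rapgef4, Adcy1, Pde4b and Pde1a lie to the right of 0 in 3 of 3 libraries; the other 4 pairs have libraries on either side.

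Creb1 itself had 210, 1203 and 1098 counts, or 3.60, 3.82 and 6.84 CPM per kb. Replicate 3 was highest, and the level of -0.41 was near that of the median gene (adjusted p = 0.992, limma). Its sign turned to 0.19 without replicate 1, 1.04 without length correction and 1.53 with no filter.

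The spread between libraries differed widely among the 28 tested members. The highest library was less than 2-fold above the lowest for 12 members, among them Prkaca, Pde4b, Rapgef4 and Prkar1b, and over 5-fold for 6: Prkar1a, Pde1a, Pde7a, Pde8a, Pde1c and Pde3b. The median SD of log2 CPM per kb was 0.68 for the tested members and 0.96 for all tested genes, a description that depends on level. Poisson chi-square tests called 27 of 28 members (96.4%) as varying beyond sampling noise, against 97.6% of all tested genes, a share near the background. The highest library was replicate 1 for 10 of the 28 members and replicates 2 and 3 for 9 each, against 36.9, 31.2 and 31.9% of all tested genes, shares near the background.

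Other genes of the pathway were read from lists set up alongside the members. Their counts stand against 9.76% above and 3.74% below among all tested genes. Of the G protein genes 6 of 8 tested lay above the median gene, while Gnai2 (level 1.21) and Gnaz (1.24) missed the threshold (adjusted p = 0.725 and 0.685, limma). Gnao1 had the highest mean, with 130, 112 and 120 CPM per kb (level 4.32, adjusted p = 4.1e-05, limma). Gnas, the stimulatory subunit that activates cyclases, had 78.5, 127 and 73.0 CPM per kb (level 3.90, adjusted p = 1.5e-04, limma). Gnai1, an inhibitory subunit, had 245, 11639 and 6347 counts (level 3.73, adjusted p = 0.00174, limma), and like Prkar1a it was lowest in replicate 1. Gng2, a gamma subunit, had 108, 155 and 84.3 CPM per kb (level 4.22), and the lowest of the list, the inhibitory Gnai3, had 4, 1333 and 596 counts and was not tested.

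Of 21 listed genes of receptors that raise cAMP, 5 passed the filter on low counts and 5 had 0 counts in each library. Among the tested, 1 lay below the median gene: Vipr1, with 7, 77 and 63 counts (level -3.42, adjusted p = 0.0196, limma). Adcyap1r1, the receptor for the peptide PACAP, was the highest and steady, at 24.1, 23.9 and 21.9 CPM per kb (level 1.95, adjusted p = 0.147, limma). Gpr12, an orphan receptor, had 40.8, 15.7 and 10.4 CPM per kb, and the dopamine receptor gene Drd5 had 0, 414 and 21 counts. Gpr6, Glp1r, Gipr and Ptger2 had 0 counts in each library.

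Of the PKA inhibitor genes, Pkia had 106, 187 and 62.2 CPM per kb (level 4.15, adjusted p = 1.1e-04, limma). It lay above Prkacb in each library, and above Prkaca in replicates 1 and 2 but not in replicate 3. Pkig had 26, 1071 and 71 counts and Pkib 0, 609 and 59, both with most counts in replicate 2. Of 12 tested anchor genes, which tether PKA to cell structures, 3 lay above the median gene: Wasf1 at 126, 170 and 135 CPM per kb, Akap11 at 41.0, 57.4 and 117, and Map2 at 39.0, 34.9 and 96.8 (adjusted p = 2.3e-05, 8.7e-04 and 0.00330, limma). Akap5, the anchor of the postsynaptic density, had 25.8, 34.3 and 25.0 CPM per kb and missed the threshold (level 2.22, adjusted p = 0.0596, limma). Akap3 and Akap4, known from sperm, had 0 counts in each library.

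Among CREB partners and relatives, 2 of 9 tested lay above the median gene and 1 below. Atf1, a relative of CREB, had 40.1, 21.8 and 40.1 CPM per kb (level 2.44, adjusted p = 0.0299, limma), and the coactivator gene Ep300 had 45.4, 22.6 and 26.1 (level 2.31, adjusted p = 0.0498, limma). Crebbp, the CREB-binding coactivator, had the highest mean of the list but stood out in replicate 1, with 101, 19.3 and 17.9 CPM per kb (level 2.43, adjusted p = 0.0621, limma). Crem, whose short form ICER is a repressor that cAMP induces, was lowest with 12, 90 and 47 counts (level -3.27, adjusted p = 0.0270, limma).

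Of the PKA substrates and cyclic nucleotide channels 3 of 16 could be tested, and their levels missed the threshold. The phosphatase inhibitor genes Ppp1r1a and Ppp1r2 had 9.75, 33.0 and 4.52 and 25.2, 14.5 and 6.40 CPM per kb (levels 0.93 and 1.14, adjusted p = 0.882 and 0.762, limma), while Hcn4, Cnga1, Cnga2, Cnga3 and Cngb3 had 0 counts in each library. On the cGMP side 1 of 4 tested genes lay above the median gene: Gucy1a2, a subunit of soluble guanylyl cyclase, with 73.8, 53.5 and 58.9 CPM per kb (level 3.35, adjusted p = 8.3e-04, limma). The cGMP-dependent kinase gene Prkg1 had 3.34, 8.25 and 4.44 CPM per kb and the receptor cyclase gene Npr2 3.08, 0.692 and 2.95, and Gucy2d had 0 counts in each library. The partner subunits Gucy1a3 and Gucy1b3 had 312, 1595 and 686 counts and 158, 2947 and 789, and no exon length was matched to these symbols.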

How the data were processed

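Per the labels' protocols, tagged polysomes were immunopurified and their RNA extracted. The authors deposited raw counts per gene symbol for each of the 3 libraries. STAR 2.0.0e, HTSeq and mm10 are named in the submitters' processing notes; annotation, strand setting and filters are not given in the sources used here. Without known strand use, overlapping antisense reads cannot be told apart; exons of 12 members overlap another gene, of which Adcy3 overlaps most on the opposite strand (22.1%, by Cenpo with 0, 8 and 0 counts). The 5 summary rows stayed out; 16.3, 38.2 and 21.1% of listed reads fell on genes, and 32.2, 24.8 and 37.5% aligned to several places, so genes with close copies lose reads.

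Genes were filtered with filterByExpr (8510 of 32531 kept) and scaled by TMM (factors 0.793, 1.19 and 1.06) in edgeR 4.0.16 under R 4.3.3. Log2 CPM used a prior count of 2. Positions and exon lengths were taken from GENCODE vM21 (GRCm38), possibly another annotation than the authors counted on: all 41 members matched, and 93.1% of filtered genes, leaving 7924 tested. Log2 CPM per kb minus the library's median tested gene was tested by TREAT in limma 3.58.1, with a trended variance and a minimum log2 difference of 1 (adjusted p threshold 0.05). Alternatives included DESeq2 1.42.0 size factors. The level and chi-square tests were also run on simulated counts. No 2 libraries agreed within sampling noise.

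Named in full were the 3 highest cyclases and phosphodiesterases, all PKA subunits, both Rapgef genes, Creb1, called members and members at 0 counts in 1 library with at least 50 in another; of each pathway list, the 3 highest and the lowest, except that a few genes of these and the marker lists are not reported here. Other names in the text, such as Gnas, Akap5 and the remaining members, were chosen after their values were seen. Members, lists, pairs and tests were chosen with earlier results of these data known. Figures used matplotlib 3.10.9.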

Additional observations from a re-analysis of the deposited data

How the results depend on the processing

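With DESeq2 size factors and with a prior count of 0.5 no call or direction changed. With no filter, so that the median gene is a lower one, 16 members lay above and 4 below it (17.8 and 16.9% of all genes), the members' median turned to 1.35, and Pde7a (1.47), Creb1 (1.53), Pde7b (1.35), Pde5a (1.30), Pde1b (1.17), Adcy5 (0.59) and Pde8a (0.12) turned positive without passing the threshold. Without length correction 10 lay above and 0 below by limma (14.1 and 5.22% of all genes), with 1 member below at an unadjusted p under 0.05, and by the same tool with no log2 threshold, on length-corrected levels, 13 and 4 (20.7 and 11.8%). Without length correction the median was -0.02, Adcy1 minus Adcy2 was 3.90, Prkacb minus Prkaca turned to 1.62 and Pde10a minus Pde2a to 0.62. Uncalled levels turned positive too, for Pde7a (0.15), Creb1 (1.04), Pde7b (0.72) and Pde5a (0.32). With the longest transcript as the length, Prkacb minus Prkaca turned to 0.69 and Pde7b to 0.18. Thinned to the smallest library, Pde4d turned to -0.14 and Pde3b was not tested, as also without replicate 2. Leaving out each replicate gave 3 to 11 members above and 1 to 3 below, the latter against 6.07, 3.16 and 2.55% of all genes without replicates 1, 2 and 3, medians of -0.84 to -0.14 and Prkacb minus Prkaca of -0.56 to 0.40. Those below were then Adcy3, Adcy4 and Pde1c, then Pde11a, and then Pde1c, Pde3b and Rapgef3. Uncalled levels ran from -0.55 to 0.19 for Creb1, -0.01 to 0.93 for Pde4d, -1.06 to 0.87 for Pde7a and -0.94 to 0.00 for Pde7b. Where not shown by the construction, the cause was not tested. No paired comparison of conditions was possible because all libraries belong to 1 group. Replicate 1 has the fewest counts and limits what can be said of low members.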
